A study of Drosophila melanogaster with 2 samples.

Results

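Small nucleolar RNA (snoRNA) genes and the genes that contain them were examined for binding of GFP-tagged tramtrack in Drosophila melanogaster embryos. The Ensembl BDGP6 annotation (release 115) holds 18277 genes on the chromosome arms once transposable elements are left out. Of these, 273 carry the biotype snoRNA (269 genes) or only a symbol that begins with snoRNA (4 genes). A host was defined as a gene on the same strand, itself neither a snoRNA nor a microRNA gene, that contains the whole snoRNA gene. By this rule 250 of the 273 snoRNA genes lay in 98 hosts, 12 of them in 2 hosts each, and 23 had no host. Of the 250, 228 were wholly intronic and 22 overlapped an annotated exon of the host, Or-aca2 and Or-CD11a among them. A snoRNA gene was called near a summit when a peak summit lay within 500 bp of it, and a host was called promoter-bound when a summit lay within 500 bp of any of its transcription start sites (TSSs).

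The study was a ChIP-seq experiment with 2 libraries, biological replicates 1 and 2 of 1 group. Chromatin came from whole embryos collected from 0 to 24 h of development, of a transgenic strain that expresses a ttk-eGFP fusion protein, and was sheared by sonication into pieces of 200 to 800 bp. GFP was the target of the antibody used for precipitation, per the labels, which name ttk in their antibody field. The sources used here do not give the promoter of the fusion gene or the state of the endogenous ttk locus, and whole embryos mix all tissues and stages of that time span. Control libraries were not analysed here, and RNA was not measured, so the data give positions of binding and no level of any snoRNA. The authors' conservative list held 3827 peaks in dm6 coordinates, 3815 of them on the chromosome arms. Signal below is the authors' value for each peak, and a replicate's signal is read from its own ranked list. The files hold no read counts, so the depth of the libraries is unknown.

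A snoRNA guides the chemical modification of another RNA by base pairing with it. Box C/D snoRNAs guide 2′-O-methylation and box H/ACA snoRNAs guide pseudouridylation, mostly of ribosomal RNA, while small Cajal body RNAs (scaRNAs) do the same for spliceosomal RNAs. In flies most snoRNAs are cut out of introns, so that the promoter of the host also drives the snoRNA, and the hosts include ribosomal protein genes and the noncoding Uhg genes (U-snoRNA host genes). Tramtrack represses transcription and binds DNA through zinc fingers, beside a BTB domain.

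The 273 snoRNA genes were 46 to 511 bp long with a median of 134 bp, and were 122 C/D genes, 121 H/ACA genes and 30 that the symbols do not class. The class names, taken from the symbols, were set beside the box sequences, with each box counted in its own class only. The letters TGATGA (the C box) stood in the first 20 bases of 83 of 122 C/D genes (68%) and CTGA (the D box) in the last 15 bases of 111 (91%), while ACA stood in the last 6 bases of 112 of 121 H/ACA genes (92.6%). The sequences of 4 of the 10 snoRNA genes near a summit are shown, because they show both box classes near a promoter summit of a ribosomal protein gene; they are not the 4 closest to a summit. They are read 5′ to 3′ on the gene's strand from the dm6 sequence held by NCBI, with the C, D or ACA box in capitals. Or-aca2 lies in RpS6 at chrX:7901062-7901203 (minus strand), Me28S-A774b in RpS12 at chr3L:13023580-13023652 (plus strand), Psi18S-1275 in RpS29 at chr3R:9778398-9778537 (plus strand) and Or-CD11a in RpL28 at chr3L:3222475-3222541 (minus strand).
snoRNA:Or-aca2: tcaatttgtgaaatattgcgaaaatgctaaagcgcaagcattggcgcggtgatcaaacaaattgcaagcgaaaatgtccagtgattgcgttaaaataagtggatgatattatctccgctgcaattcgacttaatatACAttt
snoRNA:Me28S-A774b: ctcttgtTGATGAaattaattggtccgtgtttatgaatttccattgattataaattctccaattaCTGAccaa
snoRNA:Psi18S-1275: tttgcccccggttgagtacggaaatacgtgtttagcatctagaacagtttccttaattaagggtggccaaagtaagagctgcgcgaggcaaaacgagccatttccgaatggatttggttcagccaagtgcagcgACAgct
snoRNA:Or-CD11a: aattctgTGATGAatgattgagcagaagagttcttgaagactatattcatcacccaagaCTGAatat

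The sequences under 6 host promoter summits are shown as chosen examples. RpS29, RpS12 and RpL28 host 3 of the snoRNA genes printed above, RpL23A had the strongest summit of any ribosomal protein host, and CG1142 and Irbp were among the 5 strongest of all hosts. Each run covers 60 bases on either side of the summit, 121 bases in all, on the host's strand. The windows are chr3R:9777969-9778089 (plus strand), chr3L:13023228-13023348 (plus), chr3L:3222949-3223069 (minus), chr3L:1668682-1668802 (minus), chr3R:7473888-7474008 (minus) and chr3R:11409903-11410023 (plus). Capitals mark CGATA on either strand, which forms the core of TATCGATA, the letters of the DNA replication-related element (DRE). The RpS29, RpS12 and RpL28 windows each held TATCGATA and the other 3 windows held no CGATA. These picks are richer in TATCGATA than bound hosts in general. Within 100 bp of the summit it stood in 7 of 37 windows of bound hosts (18.9%), against 6% for bound protein-coding genes. The share of G and C was 51.2% at RpS29, 38% at RpS12, 50.4% at RpL28 and 54.5% at RpL23A, but 22.3% at CG1142 and 14% at Irbp.
RpS29: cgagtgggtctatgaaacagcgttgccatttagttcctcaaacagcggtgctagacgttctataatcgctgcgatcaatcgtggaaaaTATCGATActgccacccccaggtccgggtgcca
RpS12: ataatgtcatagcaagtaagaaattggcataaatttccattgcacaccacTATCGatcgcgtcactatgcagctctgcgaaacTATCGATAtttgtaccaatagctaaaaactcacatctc
RpL28: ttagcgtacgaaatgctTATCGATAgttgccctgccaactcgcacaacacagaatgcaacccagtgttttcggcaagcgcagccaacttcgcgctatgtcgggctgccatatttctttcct
RpL23A: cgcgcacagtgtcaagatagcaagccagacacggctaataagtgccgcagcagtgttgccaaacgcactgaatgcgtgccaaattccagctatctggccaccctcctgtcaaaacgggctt
CG1142: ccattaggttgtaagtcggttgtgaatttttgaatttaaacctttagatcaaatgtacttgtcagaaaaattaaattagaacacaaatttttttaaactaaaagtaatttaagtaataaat
Irbp: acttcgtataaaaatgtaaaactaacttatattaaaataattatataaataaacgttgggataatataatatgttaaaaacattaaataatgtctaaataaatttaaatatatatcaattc

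The snoRNA genes themselves were rarely near a summit. Of the 273, 10 (3.66%) had a summit within 500 bp and 0 contained one. Other short RNA genes gave a like share at this distance: 21 of 582 tRNA, snRNA and microRNA genes (3.61%) had a summit within it, from 1.92% of microRNA genes to 15.6% of the 32 snRNA genes. At 250 bp the snoRNA genes were lower (0.733%, against 1.89%), and at 1000 bp they were higher (12.1%, against 7.04%). The longer protein-coding genes had one in 2896 of 13968 cases (20.7%), with a median length of 2164.5 bp. Counted in bases, 2.73% of snoRNA gene sequence lay within 500 bp of a summit, 4.1% of the bodies of the hosts and 2.61% of the chromosome arms. By class, 6 of 121 H/ACA genes (4.96%), 3 of 122 C/D genes (2.46%) and 1 unclassed gene were near a summit.

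For 8 of the 10 near genes the nearby summit was the promoter summit of the host. Or-aca2 was closest, 135 bp from the summit at the start of RpS6, whose signal was 107 (replicate 1 at 42.1 and replicate 2 at 71.4). Psi28S-2949 and Or-aca5, both H/ACA genes of the noncoding host Uhg4, lay 171 and 484 bp from one summit of signal 285. Me28S-A774b, a C/D gene of RpS12, was 292 bp from a summit of signal 152 that both replicates measured alike, at 74.7 and 76.1. The other promoter cases were Psi18S-1275 in RpS29 at 369 bp, Me18S-C1096 in RpL3 at 456 bp, Psi28S-1232 in RpL17 at 467 bp and Or-CD11a in RpL28 at 468 bp. Of the 10 genes, 6 therefore sat in ribosomal protein genes. Among all hosted snoRNA genes, ribosomal protein genes contained 44 of 106 H/ACA, 31 of 103 C/D and 1 of 27 unclassed genes. They contained 0 of 14 scaRNA genes, which are counted apart from their box class here. The difference was not tested.

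The remaining near genes were close to a summit inside the host and away from its TSSs. Or-ACA9, at 511 bp the longest snoRNA gene, lies in an intron of the metalloprotease gene AdamTS-A, 296 bp from a summit of signal 99.7 (51.9 and 49.6 in replicates 1 and 2). The unclassed abba-a lies in an intron of thin (tn), which encodes a TRIM protein, 437 bp from a summit of signal 94.0 (48.2 and 45.9). Just outside the 500 bp limit were U49:66Da in RpL14 at 506 bp, Psi28S-2648 in RpL36A at 509 bp and snoRNA:291 in Prp39 at 577 bp, each again near its host's promoter summit.

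None of the 23 snoRNA genes without a host had a summit within 500 bp. Of these, 11 lay in a gene of the other strand and 12 lay between genes or overlapped the end of one. The closest, Or-ACA7, was 2313 bp from a summit. The U3 genes, whose RNA is needed to cleave the ribosomal RNA precursor and which have promoters of their own, were far from binding: U3:54Aa was 26786 bp, U3:54Ab 28882 bp and U3:9B 39537 bp from the nearest summit.

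Distance to the nearest summit followed the state of the host's promoter. The median distance was 1362 bp for the 95 snoRNA genes with a promoter-bound host, 16809 bp for the 155 with an unbound host and 8569 bp for the 23 without a host. This order follows in part from the definition, since a gene inside a promoter-bound host is near a summit when the host is short. Within 2000 bp of a summit lay 79 of all 273 snoRNA genes (28.9%) and 74 of the 582 tRNA, snRNA and microRNA genes (12.7%), although the shares were nearly equal at 500 bp. Of those 79, 69 had a promoter-bound host.

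**Figure D1:**
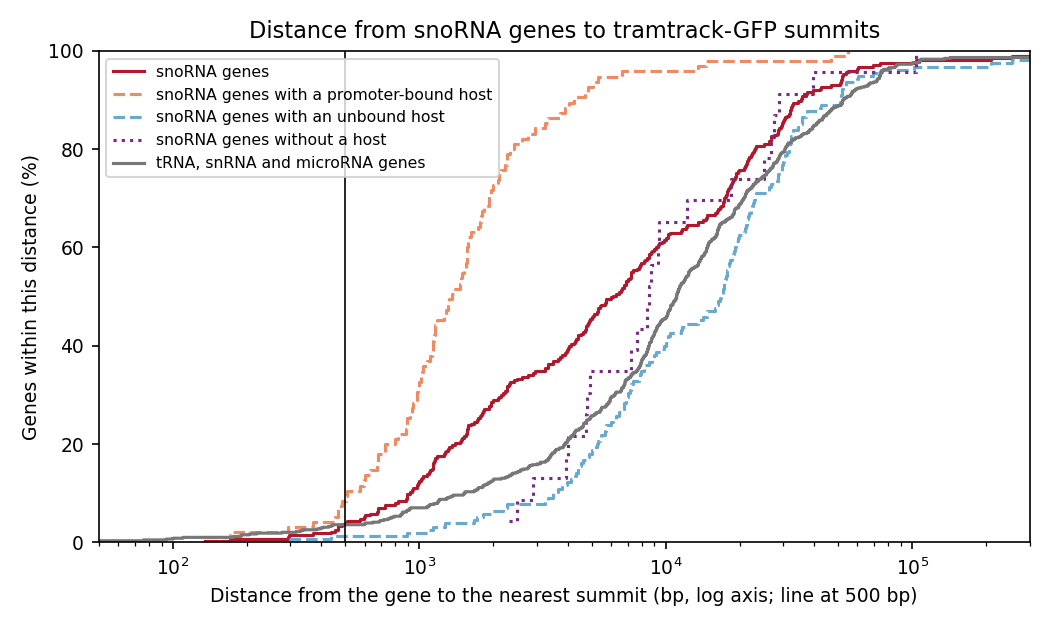
Cumulative share of genes (y axis, percent) within a given distance of the nearest summit of the conservative list (x axis, bp, log axis, black line at 500 bp), for snoRNA genes in all, split by their host's promoter, and for tRNA, snRNA and microRNA genes together. At 500 bp the snoRNA genes (3.66%) and the other short RNA genes (3.61%) coincide, and by 2000 bp the curves stand at 28.9% and 12.7%, while 72.6% of snoRNA genes with a promoter-bound host lie that close.

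The hosts were promoter-bound more often than other genes. A promoter summit was found at 38 of 98 hosts (38.8%), against 1984 of all 13968 protein-coding genes (14.2%). The bound hosts carried 95 of the 250 hosted snoRNA genes (38%). Both replicates showed the same difference in their own thresholded lists: in replicate 1, 32 hosts were bound (32.7%), against 11.9% of protein-coding genes, and in replicate 2, 35 hosts (35.7%), against 12.6%. In both of these lists at once, 25 hosts were bound (25.5%), against 9.18% of protein-coding genes.

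Ribosomal protein genes made up most of the bound hosts. Of the 29 hosts that encode a cytoplasmic ribosomal protein, 21 (72.4%, exact 95% binomial interval 52.8 to 87.3) were promoter-bound. Of the 57 ribosomal protein genes that contain no snoRNA gene, 31 were bound (54.4%, interval 40.7 to 67.6). These had a median of 1 annotated TSS, against 2 in the ribosomal protein hosts, and the shares were not compared at equal TSS number. The intervals, which take genes as independent and cover counting error only, overlap, and the difference between these groups was not tested. Ribosomal protein genes were thus bound often whether or not they contained a snoRNA gene.

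Protein-coding hosts outside the ribosomal protein genes were bound in 14 of 58 cases (24.1%, interval 13.9 to 37.2), against 1918 of the 13824 protein-coding genes that are neither hosts nor ribosomal protein genes (13.9%). Genes with more annotated TSSs have more chances of a promoter summit, and 40 of 87 protein-coding hosts have a single TSS, against 10269 of 13968 protein-coding genes. Among genes with 1 TSS, 3 of 27 such hosts were bound (11.1%), against 10.7% of all protein-coding genes with 1 TSS. Among genes with 2 TSSs the shares were 37.5% of 16 hosts and 20.4% of all protein-coding genes, and with 3 to 5 TSSs they were 28.6% of 14 hosts and 30.3%. The gap at 2 TSSs rested on replicate 2: in its own list 7 of 16 such hosts were bound (43.8%), against 17.9% of protein-coding genes with 2 TSSs, while in the list of replicate 1 it was 3 of 16 (18.8%), against 17.5%. At 1 TSS, 14.8% of these hosts were bound in each replicate's own list taken separately, against 8.71% of protein-coding genes in replicate 1 and 9.66% in replicate 2. The single such host with 6 or more TSSs was bound, against 50% of all protein-coding genes of that kind.

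The noncoding hosts were bound in 2 of 10 cases (20%, interval 2.52 to 55.6), against 139 of 3015 other noncoding RNA genes (4.61%). In the replicates' own lists it was 3 of 10 in replicate 1 (30%), against 4.31% of other noncoding RNA genes, and 1 of 10 in replicate 2 (10%), against 3.55%. The 2 in the conservative list were Uhg genes, Uhg4 and Uhg8, out of 7 Uhg hosts. The remaining bound host was the pseudogene CR33222, which shares the promoter summit of RpS6. The number of snoRNA genes carried did not order the hosts: 19 of 59 hosts of 1 snoRNA gene (32.2%), 10 of 18 hosts of 2 to 3 (55.6%) and 9 of 21 hosts of 4 or more (42.9%) were bound.

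**Figure D2:**
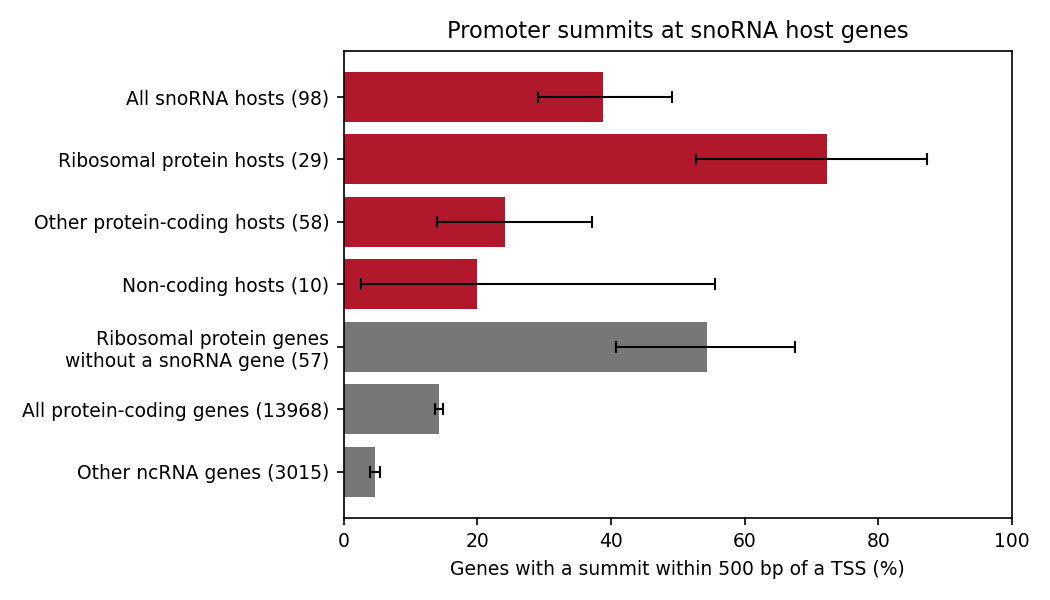
Share of genes (x axis, percent) with a summit of the conservative list within 500 bp of a TSS, for snoRNA hosts (red) and other genes (grey), with the number of genes in brackets; lines are exact 95% binomial intervals, which cover counting error only. Ribosomal protein hosts (72.4%) stand highest, ribosomal protein genes without a snoRNA gene next (54.4%), and all protein-coding genes at 14.2%.

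By kind of snoRNA the share with a bound host ran from 33.3 to 42.5%. It was 45 of 106 hosted H/ACA genes (42.5%), 36 of 103 C/D genes (35%), 5 of 14 scaRNA genes (35.7%) and 9 of 27 unclassed genes (33.3%), with scaRNA genes counted apart from their box class here. Ribosomal protein genes hosted 44 of the H/ACA genes, 31 of the C/D genes and 0 of the scaRNA genes. The bound hosts of scaRNA genes were therefore other genes. They included CG1142 with MeU5-C46, CG12316 with MeU5-U42, the Mediator subunit gene skuld (skd) with PsiU6-40 and the ankyrin-repeat gene mask with MeU2-G25.

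Among ribosomal protein hosts, the summits had signals of 71.5 to 393 with a median of 152, against a median of 148 in the 31 bound ribosomal protein genes without a snoRNA gene. RpL23A was strongest at 393 (3L:1668631-1668850; replicate 1 at 187 and replicate 2 at 215) and a summit 88 bp upstream of its TSS. RpL14 followed with 297 (149 and 159) and RpS20 with 278 (144 and 136). These 3 hosts had replicate signals close to each other. RpS29 differed more, at 196 in the conservative list but 61.3 in replicate 1, against 133 in replicate 2. RpS5a, which carries 14 snoRNA genes, reached 135 (63.4 and 74.7), and RpS7, which carries 7, had 121 (61.4 and 69.0). The weakest was RpL36A at 71.5 (49.5 and 32.8).

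The 2 strongest host summits lay at genes outside the ribosome. The 16 bound hosts of this kind, CR33222 left out, had a median signal of 174, against 146 over the 1416 summits of protein-coding genes. CG1142, which has no name beyond its annotation number and hosts the scaRNA MeU5-C46, reached 653, the highest of any host (3R:7473841-7474065; replicate 1 at 331 and replicate 2 at 319), ranked 99 in the conservative list. Stt3A, the gene of a catalytic subunit of the oligosaccharyltransferase, came next with 421 (220 and 209), but its summit lay 409 bp upstream of its own TSS and 200 bp from that of the neighbouring gene bves. Msp300, a nesprin gene, had 368 (202 and 184), and Irbp, the fly gene of a Ku DNA-repair subunit, also had 368 (199 and 170). The Irbp summit lay 84 bp upstream of its own TSS and 88 bp from that of the neighbouring gene mgr, so it may belong to either. In these 4 hosts the replicates differed by at most 0.23 on the log2 scale.

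Further down, the dystrophin gene Dys had a signal of 274 (148 and 120 in replicates 1 and 2); of the 38 bound hosts it alone had no promoter summit in the authors' larger list. The translation elongation factor gene eEF1alpha1 had 255 (95.8 and 155). In mask, with a signal of 141, the replicates stood furthest apart, at 44.4 and 105. The splicing factor genes SC35 and Prp39 had signals of 112 and 101. For lola, which encodes another BTB zinc-finger protein, the summit of signal 97.3 had a match in replicate 1 (51.5) and none within 150 bp in replicate 2. Replicate 2 did have a ranked peak of 41.2 within 500 bp of a lola TSS. In neither replicate's own thresholded list was lola promoter-bound.

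Over the 37 bound hosts whose strongest summit was matched in both replicates, the log2 ratio of replicate 1 over replicate 2 ran from -1.24 to 0.96 with a median of -0.13 and an SD of 0.57. These values count the shared summit of RpS6 and CR33222 for each of them, and the counts that follow leave CR33222 out. Replicate 2 was the higher at 15 of 21 ribosomal protein hosts (71.4%), and at 5 of 15 other coding and noncoding hosts (33.3%), against 574 of 1381 summits of protein-coding genes matched in both lists (41.6%). At ribosomal protein genes without a snoRNA gene it was higher at 15 of 31 (48.4%). The lists were scaled separately, so a ratio above or below 0 on this scale has no absolute meaning, and the gap between the groups of hosts was not tested.

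**Figure D3:**
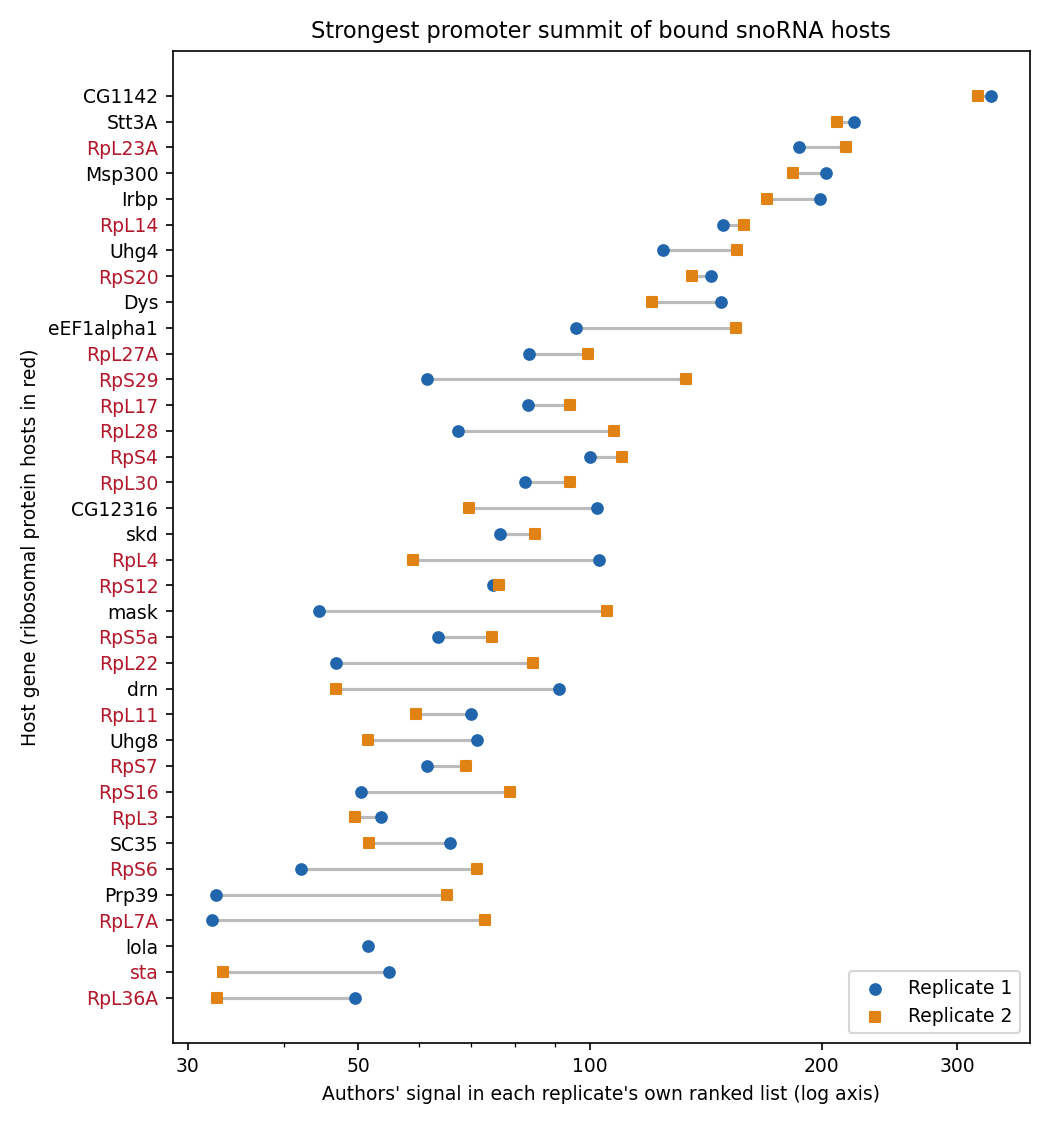
Signal of the strongest promoter summit of bound hosts in replicate 1 (circles) and replicate 2 (squares), from each replicate's own ranked list (x axis, log axis), with hosts ordered by the signal of the conservative list and ribosomal protein hosts in red; CR33222, which shares the RpS6 summit, and 1 host not reported by name are left out. CG1142 stands highest in both (331 and 319), and lola is plotted in replicate 1 alone (51.5), as replicate 2 had no summit within 150 bp of it.

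Of the strongest summits of the 38 bound hosts, 31 lay upstream of the nearest TSS of the host, with a median position of 47 bp upstream. The summit shared by RpS6 and CR33222 is counted for each of them. At 31 hosts no TSS of another gene was nearer to the summit than the host's own. At the other 7 hosts another gene's TSS was nearer, among them bves at Stt3A, CG17271 at RpS20, Pdss2 at skd, CG5199 at Uhg8, eRF3 at SC35 and RpS6 at CR33222. With only own-nearest summits counted, 31 of 98 hosts (31.6%) were promoter-bound, against 10.3% of protein-coding genes under the same rule, an alternative chosen after seeing the data. Uhg4 was then the only bound noncoding host of the 10.

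The snoRNA genes lay downstream of the promoter summits, although Or-aca2 overlaps the end of the RpS6 peak (X:7901166-7901509). The distance from the strongest promoter summit to the nearest hosted snoRNA gene ran from 135 bp at RpS6 to 125340 bp at Dys, with a median of 936 bp, and no such summit lay inside a snoRNA gene. In Uhg4 the first of 7 snoRNA genes began close to the start and the rest followed at intervals over the whole gene. In RpS5a all 14 lay 1548 bp or more from the summit. In Msp300 and Dys, by contrast, the hosted snoRNA gene lay 94218 and 125340 bp from the promoter summit.

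**Figure D4:**
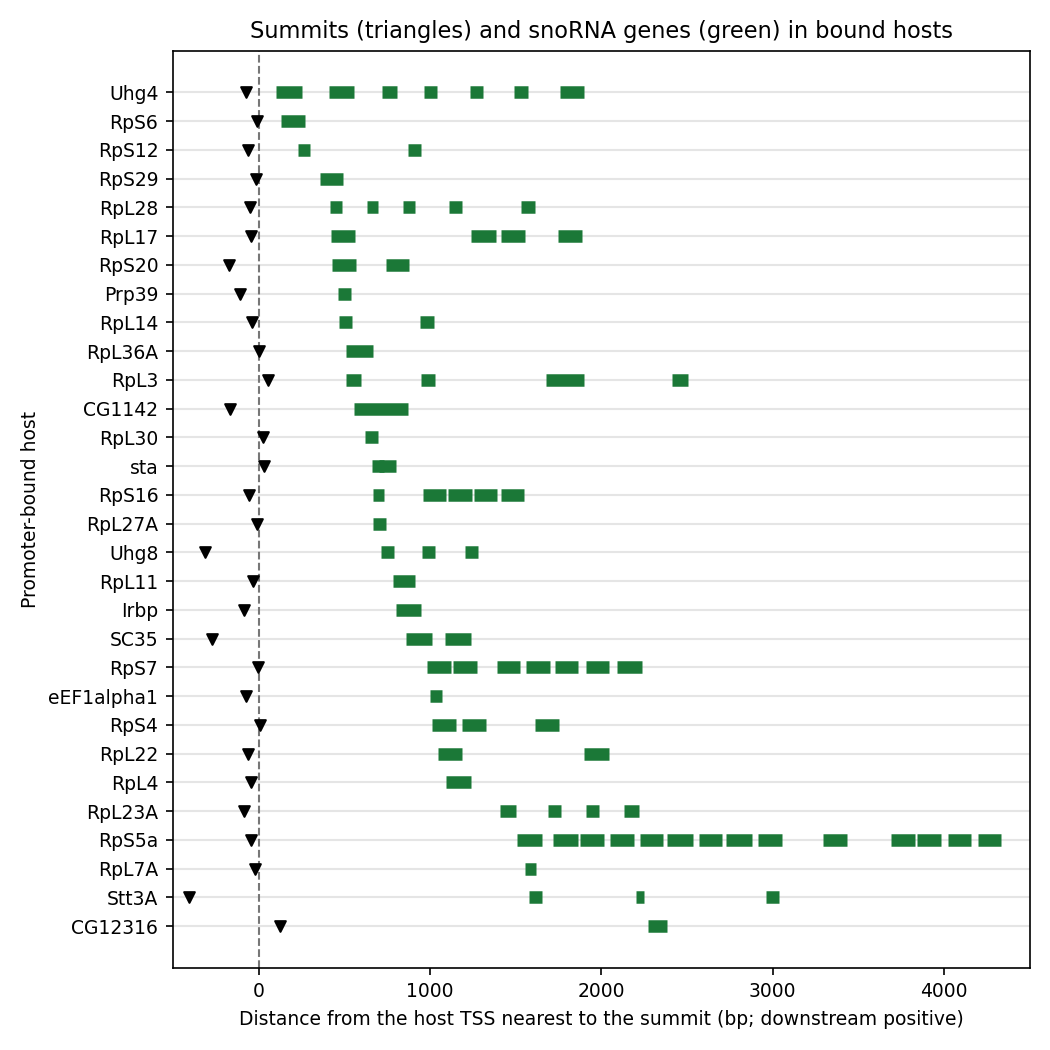
Promoter-bound hosts whose first snoRNA gene begins within 3 kb of the TSS, one per row (CR33222 and 1 host not reported by name left out), with the strongest promoter summit (triangle) and the hosted snoRNA genes (green) at their distance in bp from the host TSS nearest to that summit (x axis, dashed line at the TSS, downstream positive). Most summits lie at or just upstream of the TSS and every snoRNA gene lies downstream of it, from Uhg4 at the top to CG12316 at the bottom.

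Several of the richest hosts had no promoter summit. The 11 hosts with most snoRNA genes, ties included, were the actin-nucleation gene Arpc2 (17), Uhg1 (16), the chromatin remodeller gene domino (dom, 15), RpS5a (14), Uhg5 (11), the splicing factor gene Sf3b3 (9), the translation regulator gene krasavietz (kra, 8), and Hrb98DE, Nop60B, Uhg4 and RpS7 with 7 each. Of these, RpS5a, Uhg4 and RpS7 were bound. The others had weak ranked peaks at most: dom had 30.5 in replicate 1 and none in replicate 2, kra 35.3 and none, Sf3b3 24.7 and 25.6, Hrb98DE 26 and 18.9, and Arpc2 none and 24.2. Nop60B encodes the fly dyskerin, the pseudouridine synthase of H/ACA particles, and had 28.0 and 9.99.

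Among the Uhg genes the difference was wide. Uhg4, a noncoding gene on 2R with 7 snoRNA genes, had a summit 72 bp upstream of its TSS (2R:9095114-9095279) and a signal of 285 (replicate 1 at 124, replicate 2 at 155). Uhg8, with 3 snoRNA genes, had a signal of 123 (71.3 and 51.4), at a summit 310 bp upstream of it and 119 bp from the start of CG5199. Uhg2 had a ranked peak of 47.5 in replicate 1, past that replicate's own threshold, and none in replicate 2. Uhg1 had 18.5 and none, Uhg5 22.4 and none, Uhg7 13.2 and 18.7, and Uhg3 none in either. The other noncoding hosts, CR45184, CR31647 and CR42491, had ranked signals of at most 20.1. Uhg7 lies wholly within the bound host RpL23A on the same strand, and both contain the same 4 snoRNA genes. CR42491 likewise lies within the bound host RpL22, which also contains its snoRNA gene. The snoRNA genes of Uhg7 and CR42491 are therefore counted here as having a promoter-bound host.

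Some unbound hosts were near the limit of the conservative list. Of the 60, CG43051, RpL10Ab, ect and hts had a promoter summit in the authors' larger list, and Uhg2, Tudor-SN, RpL10Ab, ect and gcl had one in the thresholded list of 1 replicate. At RpL13A a ranked peak of signal 113 (57.0 and 59.5 in replicates 1 and 2) and at dmt one of 94.4 (40.1 and 58.1) had scores at or above 830, the lowest score in the conservative list, yet neither is in that list. In all, 83 of the 3898 ranked peaks with such a score were absent from it.

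Of 20 genes for snoRNP proteins and processing factors, 3 (15%, interval 3.21 to 37.9) had a promoter summit, against the 14.2% of all protein-coding genes. The count was 1 of 20 (5%) in the list of replicate 1, against 11.9% of protein-coding genes, and 4 of 20 (20%) in that of replicate 2, against 12.6%, so that the list is too short to place it above or below other genes. NHP2, a core protein of H/ACA particles, reached 170 (replicate 1 at 91.6, replicate 2 at 80.2) at 175 bp upstream of its TSS. Nopp140, a nucleolar chaperone of snoRNPs, had 108 (40.0 and 65.1), and the exosome nuclease gene Dis3 had 91.8 (34.0 and 62.1). The other core genes, Fib, nop5, Nop56 and hoip of C/D particles and Nop60B, Gar1 and Nop10 of H/ACA particles, had none. At pontin (pont), a helicase gene of the assembly machinery, a ranked peak of signal 619 (373 and 258) passed the score but is absent from the conservative list. With it and the other such peaks counted, an alternative chosen after seeing the data, 4 of the 20 genes (20%) and 40 of the 98 hosts (40.8%) were bound, against 14.5% of protein-coding genes.

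Base composition at the bound promoters split the hosts. In the 60 bases on either side of the summit, the 21 ribosomal protein hosts had a median of 50.4% G and C (28.1 to 61.2), and the 17 other hosts, CR33222 included, had 33.9% (14 to 51.2). The ribosomal protein genes without a snoRNA gene had 47.1% (31 summits), and all promoter-bound protein-coding genes 33.1% (1416 summits). The hosts outside the ribosome were therefore close to the usual bound promoter, and ribosomal protein hosts were close to the other ribosomal protein genes. The AT-rich summits at CG1142, SC35 and Irbp, at 22.3, 18.2 and 14% G and C, were the lowest of the hosts.

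**Figure D5:**
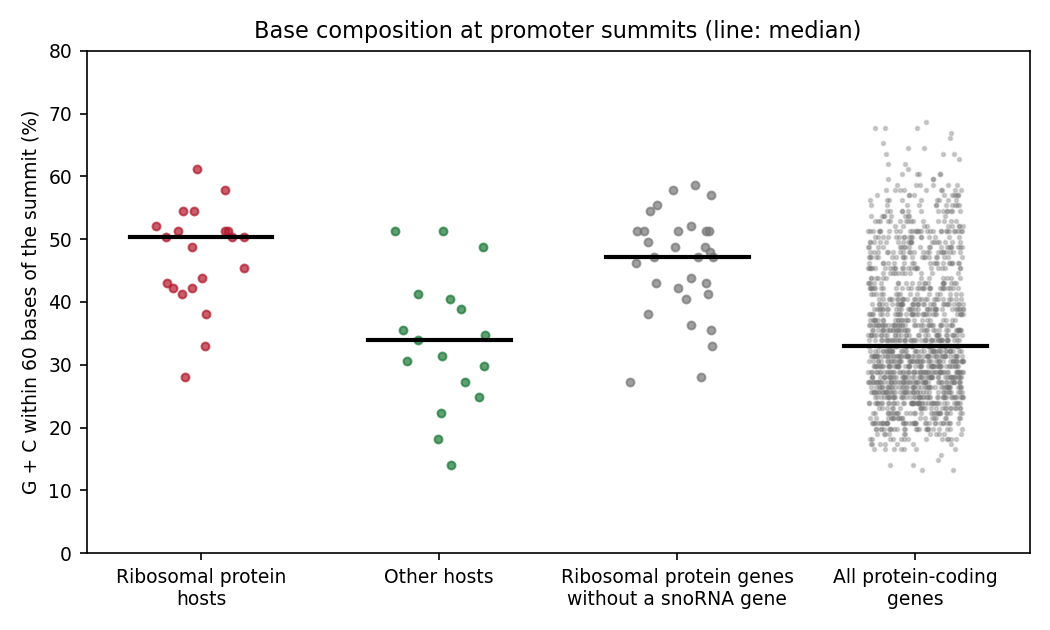
Share of G and C (y axis, percent) in the 121 bases centred on the strongest promoter summit, one point per summit, for ribosomal protein hosts, other hosts, ribosomal protein genes without a snoRNA gene and all promoter-bound protein-coding genes; the black line is the median. The medians are 50.4, 33.9, 47.1 and 33.1%, and points are spread sideways for legibility.

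Of 10 motifs searched in the window from 250 bases before to 50 after each gene's main TSS, TATCGATA and TCTTT differed most between hosts and all protein-coding genes, as a ratio of shares. TATCGATA, on either strand, stood in the promoters of 21 of 98 hosts (21.4%), against 9.23% of all protein-coding genes. It stood in 27.6% of ribosomal protein hosts and 18.8% of the others, and in 26.3% of bound hosts and 18.3% of unbound ones. TCTTT starting within 5 bases of the TSS on the sense strand, letters of the TCT initiator of ribosomal protein genes, stood in 16.3% of hosts, against 1.63% of protein-coding genes. It was in 41.4% of ribosomal protein hosts and 5.8% of other hosts.

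Within 100 bp of the summit itself, TATCGATA stood in 7 of 37 windows of bound hosts (18.9%), against 6% of 1416 bound promoters of protein-coding genes. The hosts with it were RpS29, RpL28, RpS12, RpS7, RpS6, RpL36A and Prp39. The shorter CGATA, which every TATCGATA contains, stood in 48.6% of host windows and 34.7% of the others. AGGAC, the letters of a site known to be bound by tramtrack, stood in 7 of the 37 host windows (18.9%), against 8.12%: these were CG12316, RpL4, mask, drn, RpS16, RpL7A and lola. In the promoter window AGGAC stood in 13.3% of host promoters and 16.7% of all promoters of protein-coding genes. There it was in 10.5% of bound hosts, 15% of unbound hosts and 11.1% of bound protein-coding genes. The longer GGTCCT, which contains AGGAC read on the other strand, stood in 1 host window (2.7%, at mask), against 1.48%, and in 2.04% of host promoters, against 3.71%. None of the 4 strongest hosts held TATCGATA or AGGAC within 100 bp of the summit. Of the 9 motifs searched in these windows, 5 were more frequent in hosts, with GGTCACACT nearly equal at 2.7%, against 2.68%. Less frequent in hosts were TATAAA (18.9%, against 36%), GAGAG (10.8%, against 21.3%), TCAGT (24.3%, against 32.1%) and CAGCTG (8.11%, against 11.3%). A match is only a run of letters, and differences between shares were not tested.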

How the data were processed

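Each of the 2 ChIP-seq libraries has deposited peak lists, and the series has lists made from both. The signal of each peak was computed by the authors and deposited with a score and a summit; the sources used here do not give its normalization, the aligner, the peak caller or the depth. The lists are in dm6, per the labels. Genes and TSSs came from Ensembl release 115 (BDGP6) and bases from the dm6 sequence held by NCBI. A replicate's signal was taken from the nearest summit, at most 150 bp away, in its own ranked list. Coordinates are 1-based.

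With 1 group there was no test: members are described by counts and shares beside those of all genes, with exact (Clopper-Pearson) 95% intervals. The rule named bound hosts by signal, every noncoding host, the hosts with most snoRNA genes, snoRNA genes near a summit and bound snoRNP genes; 1 bound host is counted but not reported here by name. Members, lists, motifs and windows were chosen with earlier results of these data known. Of 22 snoRNP symbols, 20 matched, 2 of them through synonyms. Tools were matplotlib 3.10.9, scipy 1.17.1, pandas 2.3.3 and numpy 2.4.6 under Python 3.11.15, and the window counts were checked on simulated data.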

Additional observations from a re-analysis of the deposited data

How the results depend on the processing

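The larger share of hosts than of protein-coding genes with a promoter summit held under every alternative run, at 2.47 to 3.15 times, and for the 69 hosts outside the ribosomal protein genes, noncoding ones included, at 1.45 to 2.15 times. The 69 also include CR33222, which shares the RpS6 summit. All 69 were set against protein-coding genes, while 4.61% of other noncoding RNA genes were bound in the conservative list. With genes matched on TSS number, the protein-coding ones among the 69 hosts had shares of 11.1%, against 10.7%, at 1 TSS. At 2 TSSs the shares were 37.5%, against 20.4%, and at 3 to 5 TSSs 28.6%, against 30.3%. In the list of replicate 1 they were 14.8%, against 8.71%, at 1 TSS and 18.8%, against 17.5%, at 2 TSSs. In that of replicate 2 they were 14.8%, against 9.66%, and 43.8%, against 17.9%. At 3 to 5 TSSs these hosts were lower in both lists, at 21.4%, against 27.4% in replicate 1 and 25.6% in replicate 2. Of the snoRNP genes, 5% were bound with peaks of at least the median signal and 25% at 1000 bp. With peaks of at least the median signal, 27.6% of hosts, 26.8% of hosted snoRNA genes, 48.3% of ribosomal protein hosts, 40.4% of ribosomal protein genes without a snoRNA gene and 8.75% of protein-coding genes were bound. The share of protein-coding genes was 16.1% in the larger list, 15.2% by any base of the peak, 11% at 250 bp, 16.9% at 1000 bp, 10.3% by the own-nearest rule, and 11.9 to 12.6% in the lists of single replicates. The median signal of host summits was 157, against 151 for bound protein-coding genes, and 141, against 133, in the larger list. It was 83.1, against 93.7, in replicate 1 and 84.8, against 83.3, in replicate 2, whose signals are on their own scale. With peaks of at least the median signal it was 187, against 222. The window set the counts for snoRNA genes: at 250 bp, 0.733% of all, 1.65% of H/ACA and 0% of C/D genes were near a summit, and at 1000 bp 12.1%, 10.7% and 13.1%, so the order of the classes turned. Of the tRNA, snRNA and microRNA genes, 1.89% were near a summit at 250 bp and 7.04% at 1000 bp. The snoRNA genes were thus below them at 250 bp and above them at 1000 bp. No paired analysis was possible because there was 1 group. The limits are the lack of control libraries, of read depth and of RNA measurements, and the mix of tissues in whole embryos. A gene with no summit may still be bound below the threshold of the list.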
